A study of Mus with 6 samples.

Results

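The genes for translation initiation and elongation factors were examined in cardiac microvascular endothelial cells of Ccl28 knockout (KO) and wild-type (WT) mice. They were chosen by symbol, as every gene whose name starts with Eif and a digit of 1 to 6 or with Eef and a digit of 1 to 2, leaving out the Eif2ak kinases and names with -ps. The symbol rule itself used no measured value, but it was chosen with earlier results of these data known. It gave 65 of 20893 genes, of which 51 are initiation factors or their regulators and 14 are elongation factors or their regulators. RNA sequencing covered 6 libraries. The 3 KO libraries were labelled in their titles as replicates 2, 3 and 4 of mice without Ccl28, a chemokine gene, and the 3 WT libraries as replicates 2, 3 and 4 of wild-type mice. The left coronary artery had been ligated in both groups, so no unoperated heart stands beside them. CD31-positive, CD45-negative cells had been taken with magnetic beads, and the labels used here give no strain, age, sex, time after ligation, or extent of the Ccl28 deletion. The genotype field of KO replicates 3 and 4 names Ccl29 and Ccl30, against their titles, and the titles were followed. Nothing in the labels says that the libraries came from separate animals, so p-values measure only how these samples spread, and that spread may be technical.

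Initiation factors bring the initiator tRNA and the small ribosomal subunit to an mRNA. eIF2 carries the tRNA and eIF2B reloads eIF2 with GTP, eIF3 is the large scaffold on the small subunit, and eIF4E, eIF4G and eIF4A bind the cap and unwind the leader. eIF5 and eIF5B then let the large subunit join. Elongation factor eEF1A delivers each aminoacyl-tRNA, the other eEF1 subunits reload eEF1A with GTP, and eEF2 moves the ribosome along. The mRNAs of the ribosomal proteins and of a few factors begin with a terminal oligopyrimidine (TOP) tract, through which mTORC1 controls how strongly they are translated.

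Levels are the deposited FPKM, which divide the fragments of a gene by its length and the depth of the library, and are given in the order of replicates 2, 3 and 4. The KO libraries held 36004457 to 37780513 assigned reads, and the WT libraries 39104282 to 40500067, as recovered from the deposited tables. Ccl28 had 0, 0 and 0 reads in KO libraries, against 16, 11 and 24 reads in WT libraries, a gene of few reads in either group. The 10 endothelial markers summed to 3830 to 4152 FPKM in KO libraries and 4101 to 4181 FPKM in WT libraries, with 2 of 10 higher and 4 lower (0 and 7 with quantile normalization, 3 and 3 with median-ratio scaling). Cdh5, an endothelial cadherin, had 511 to 613 FPKM in KO libraries and 753 to 781 FPKM in WT libraries, and Pecam1, which encodes CD31, had 561 to 648 FPKM in KO libraries and 673 to 744 FPKM in WT libraries. Ptprc, which encodes CD45, had 1.01 to 1.41 FPKM in KO libraries and 0.871 to 1.71 FPKM in WT libraries. The 13 leukocyte markers summed to 272 to 397 FPKM in KO libraries and 111 to 245 FPKM in WT libraries, and 9 of the 12 tested rose. The 6 fibroblast markers summed to 10.8 to 13.1 FPKM in KO libraries and 22.7 to 25.2 FPKM in WT libraries, and 5 of 5 tested fell. The 8 mural cell markers summed to 337 to 525 FPKM in KO libraries and 442 to 577 FPKM in WT libraries, and 6 of 8 fell, while the 7 cardiomyocyte markers summed to 115 to 135 FPKM in KO libraries and 88.9 to 125 FPKM in WT libraries, with 2 of 5 tested higher and 1 lower. Of all genes tested, 18.3% rose and 25.8% fell. With the length trend removed, as described further on, 5 leukocyte markers and 1 cardiomyocyte marker were higher. On the lower side were 3 endothelial, 5 mural and 4 fibroblast markers, where 10.0% of all genes were higher and 9.10% lower. No marker of these lists was at 0 in all libraries, and the part of these cells in any result on the factors was not tested. In bulk RNA, fewer cells of a type and less RNA per cell cannot be told apart.

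Of the 65 genes, 63 passed the minimum of 1 FPKM in 3 or more libraries and were tested with limma on log2(FPKM + 1). Of these, 23 rose and 10 fell in KO libraries at an adjusted p under 0.05, and 30 did not pass. Over all 10806 genes tested, 18.3% rose and 25.8% fell, 44.2% in all. The factors' median log2 fold change (KO over WT) was 0.13, against -0.03 for all genes tested and 0.63 for the 81 cytosolic ribosomal protein genes, of which 80 rose and 0 fell. With quantile normalization of the libraries, the medians were 0.13 for the factors, 0.01 for all genes and 0.25 for the ribosomal protein genes, of which 50 then rose and 0 fell, and 16 of the 23 factors that rose and 9 of the 10 that fell kept their calls. The KO values lay above all WT values for 26 factors and below them for 12, against 22.8% and 31.9% of all genes tested. The initiation group held 17 that rose and 10 that fell among 50 tested, and the elongation group 6 that rose and 0 that fell among 13. Leaving out WT replicate 4 left 15 that rose and 4 that fell, and 5 fell without KO replicate 4 or without WT replicate 2. The plot of all tested factors by role shows the direction of each.

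**Figure D1:**
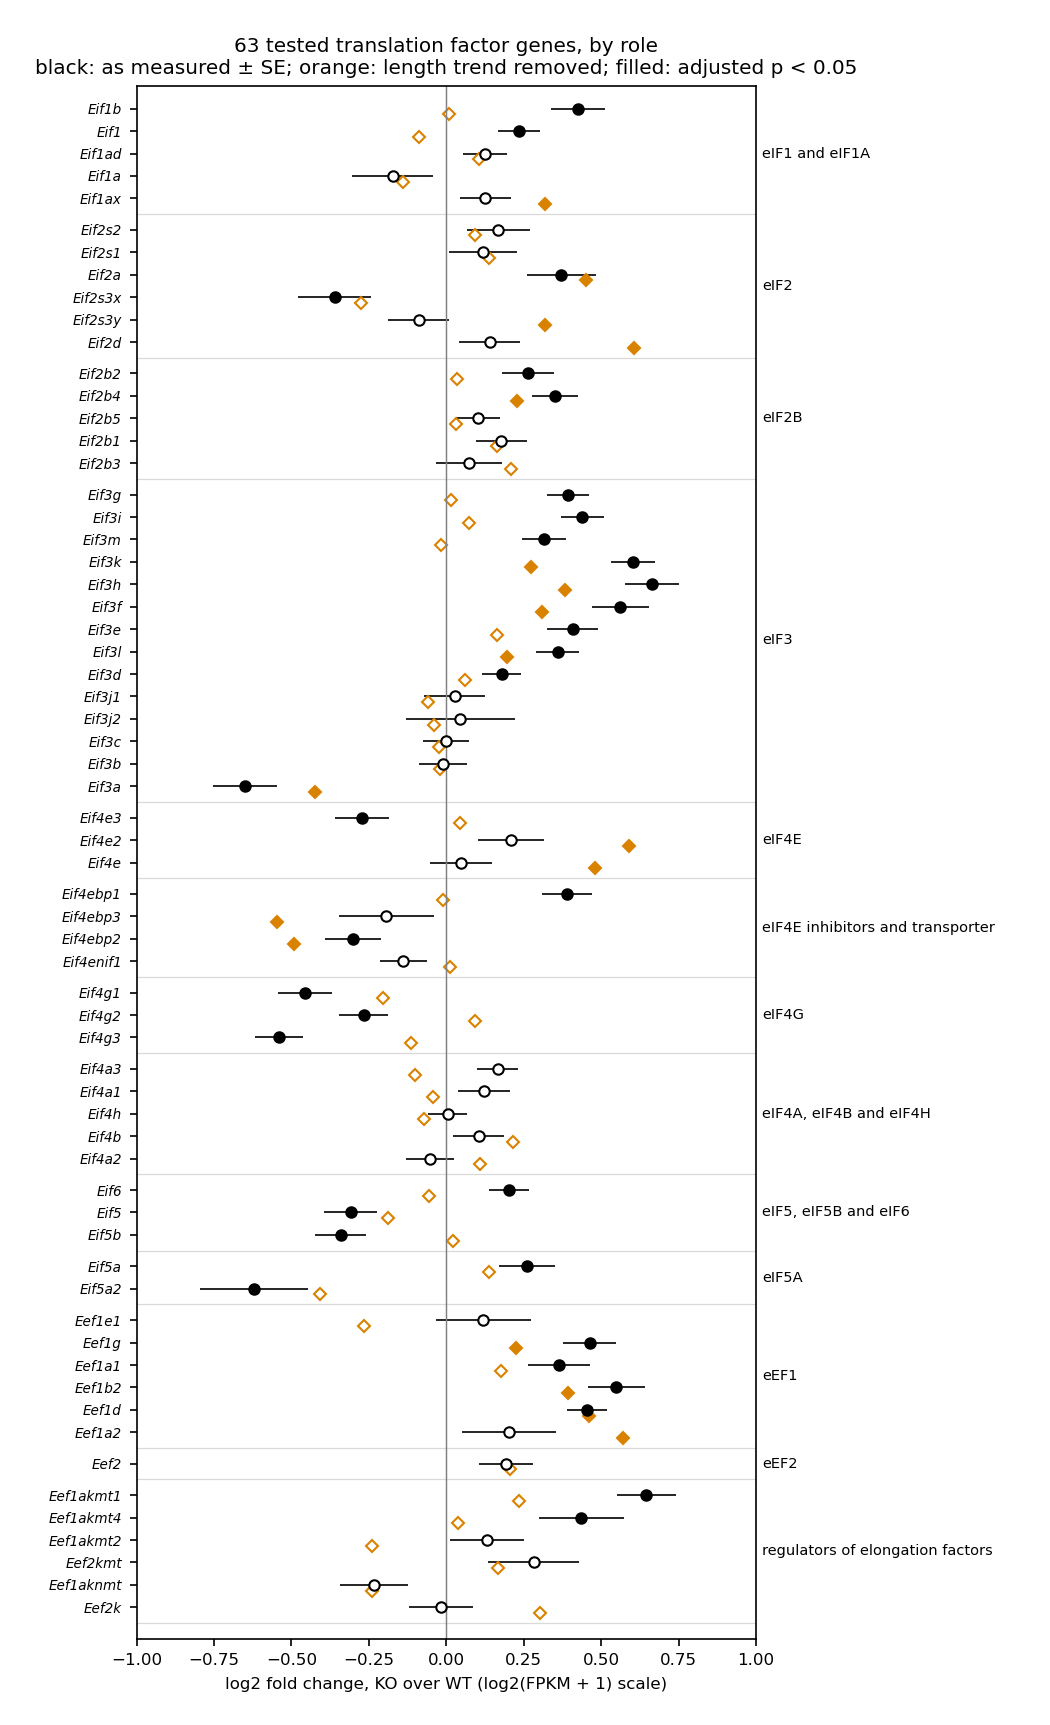
Difference KO minus WT of log2(FPKM + 1), called log2 fold change (x axis), for each of the 63 tested factor genes (y axis, grouped by role and sorted by transcript length within a role). Black points with bars are the values as measured ± SE and orange diamonds the values after the length trend was removed, with filled symbols for adjusted p under 0.05. The eIF3 and eEF1 genes lie mostly to the right of 0 and the 3 eIF4G genes to the left as measured, and the orange diamonds lie nearer to 0 than the black points for 17 of the 21 shortest factors but farther from 0 for 6 of the 10 longest.

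Together the factors took 2.09%, 2.02% and 2.02% of assigned reads in KO libraries, against 1.86%, 1.73% and 1.70% in WT libraries. All 3 KO libraries were above all 3 WT libraries. Without Eef1a1 and Eef2, the share was 0.924%, 0.936% and 0.940% in KO libraries, against 0.918%, 0.821% and 0.856% in WT libraries, and KO replicate 2 and WT replicate 2 then lay close together. Ribosomal protein genes took 6.10%, 5.81% and 6.58% of reads in KO libraries, against 4.21%, 4.04% and 3.79% in WT libraries.

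The eIF3 scaffold is the role with the most genes here. Of its 14 tested genes, 9 rose (those of subunits d, e, f, g, h, i, k, l and m), Eif3a fell, and Eif3b, Eif3c, Eif3j1 and Eif3j2 did not pass, beside 18.3% that rose and 25.8% that fell of all genes. After the length trend was subtracted, as described further on, 4 of the 14 were higher and 1 was lower (1 and 1 with quantile normalization), beside 10.0% and 9.10% of all genes. Eif3h (chr15:51786563-51865461 in GRCm38.p6, as all coordinates here), an outer subunit, had 231, 213 and 251 FPKM in KO libraries, against 157, 146 and 134 FPKM in WT libraries. No KO value overlapped a WT value, and the mean was 232 ± 19.02 FPKM in KO libraries and 146 ± 11.9 FPKM in WT libraries (SD, n = 3 each), with a log2 fold change of 0.67 ± 0.09 (SE, adjusted p = 0.000624). Eif3k (chr7:28971372-28981890), which pairs with Eif3l at the rim of the complex, had 154, 146 and 160.2 FPKM in KO libraries, against 101, 105 and 95.4 FPKM in WT libraries. The groups were again apart, with a log2 fold change of 0.60 ± 0.07 (SE, adjusted p = 0.000518). Eif3f (chr7:108934415-108941942), a partner of Eif3h and Eif3m, had 229, 211 and 259 FPKM in KO libraries, against 157, 169 and 145 FPKM in WT libraries. KO replicate 4 was the highest library for all of Eif3h, Eif3k and Eif3f, and the fold change of Eif3f was 0.56 ± 0.09, adjusted p = 0.00135.

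Eif3a (chr19:60761116-60790693), the largest subunit and the base on which the complex is built, went the other way. It had 38.6, 41.7 and 32.02 FPKM in KO libraries, against 63.1, 53.1 and 61.1 FPKM in WT libraries. Each KO library was below each WT library, and the mean was 37.4 ± 4.93 FPKM in KO libraries and 59.1 ± 5.27 FPKM in WT libraries (SD, n = 3 each), with a log2 fold change of -0.65 ± 0.10 (SE, adjusted p = 0.00127). The core partners Eif3b and Eif3c averaged 89.4 ± 3.39 FPKM in KO libraries and 90.2 ± 7.46 FPKM in WT libraries and 98.1 ± 1.61 FPKM in KO libraries and 98.3 ± 8.23 FPKM in WT libraries. Neither passed (-0.01 ± 0.08, adjusted p = 0.93; 0.00 ± 0.07, adjusted p = 0.998), and their KO and WT values overlapped. Eif3j1 and Eif3j2 are near-identical copies, so their reads may be split between them, and the span of Eif3j1 overlaps Spg11. The calls of Eif3f, Eif3g, Eif3h, Eif3i, Eif3k, Eif3m and Eif3a were kept under all 14 other settings tried without length removal. With length removed, those of Eif3g (0.02, adjusted p = 0.86), Eif3i (0.07, adjusted p = 0.458) and Eif3m (-0.02, adjusted p = 0.9) were lost. The call of Eif3d, at 0.18 ± 0.06, adjusted p = 0.0407, was lost when any of 5 libraries (KO replicate 2, 3 or 4 or WT replicate 3 or 4) was left out, with adjusted p = 0.0701 to 0.145.

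**Figure D2:**
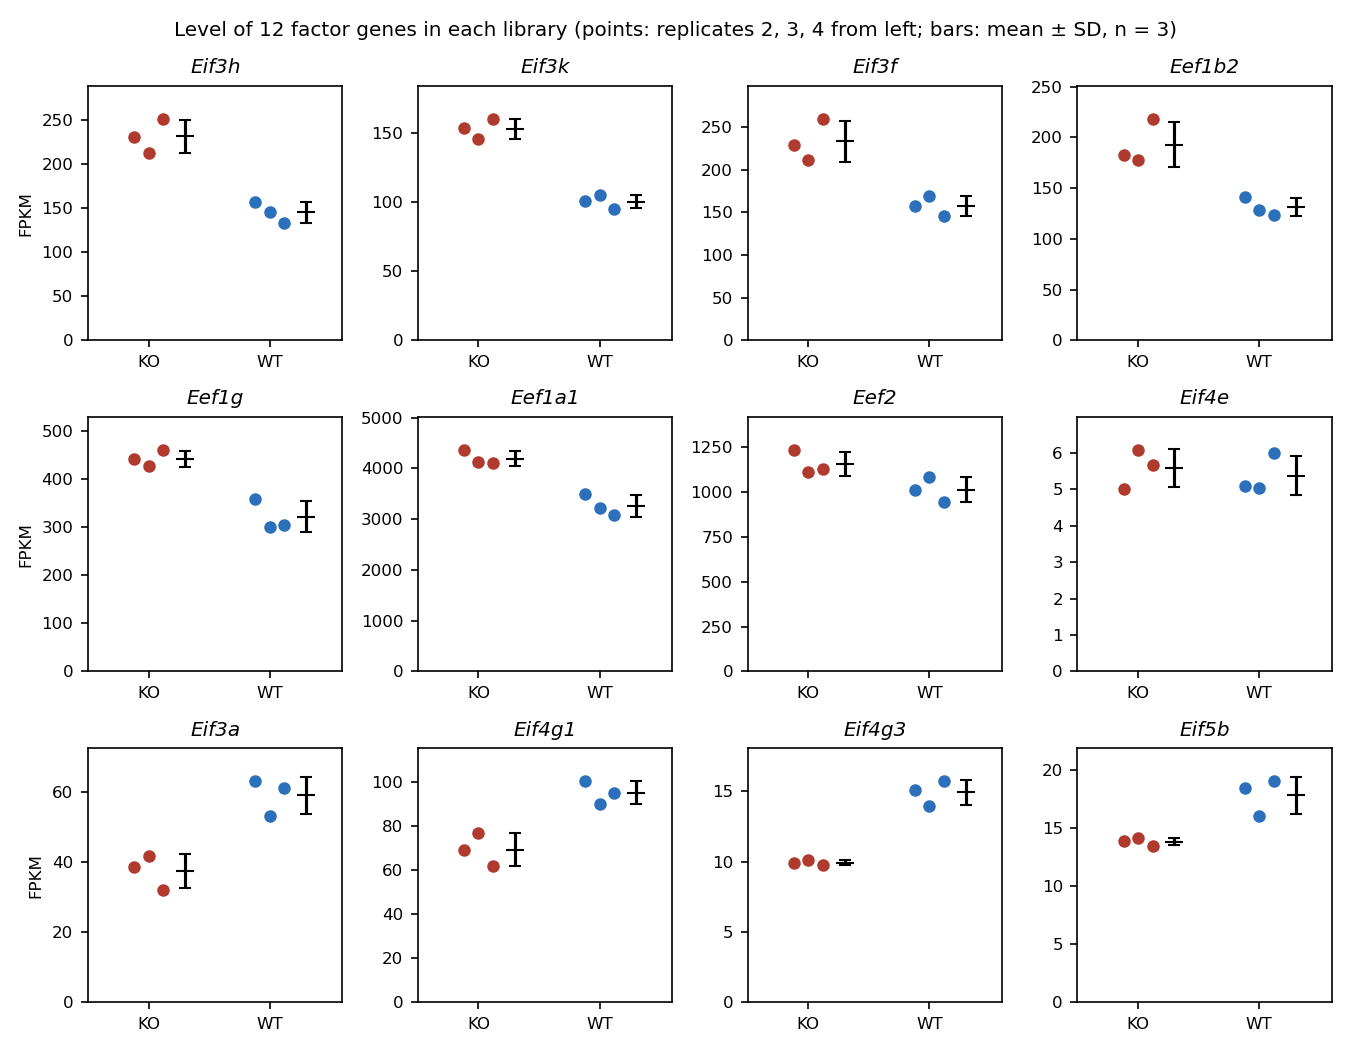
FPKM (y axes, each from 0) of 12 factor genes in the KO and WT libraries (x axes), with points for replicates 2, 3 and 4 from left to right and bars for the mean ± SD of 3 libraries. Eif3h, Eif3k, Eif3f, Eef1b2, Eef1g, Eef1a1 and Eef2 lie higher in each KO library than in any WT library, Eif4e overlaps between groups, and Eif3a, Eif4g1, Eif4g3 and Eif5b lie lower in each KO library.

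Among the elongation factors, 4 of the 6 eEF1 genes rose and 0 fell (2 and 0 with quantile normalization, which turned Eef1a1 to -0.25), beside 18.3% and 25.8% of all genes. Eef1a1 (chr9:78478453-78481724), the tRNA carrier and the most abundant factor mRNA here, had 4359, 4119.9 and 4101 FPKM in KO libraries, against 3490.5, 3224 and 3074 FPKM in WT libraries. Its groups did not overlap, with a log2 fold change of 0.36 ± 0.10 (SE, adjusted p = 0.0155), although it has near-identical copies elsewhere in the genome among which the counting may have divided reads. The call was lost without KO replicate 2 or without WT replicate 4 (adjusted p = 0.0666 to 0.0707). Eef1a2, the paralog known from neurons and muscle, had 1.74, 1.51 and 0.999 FPKM in KO libraries, against 0.792, 1.08 and 1.43 FPKM in WT libraries. The libraries overlapped and the difference did not pass (0.20 ± 0.15, adjusted p = 0.302).

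The exchange factors rose by more than their client Eef1a1 in point estimate, a difference between genes that was not tested. Eef1b2 (chr1:63176831-63180486), the catalytic exchange subunit, had 183, 178 and 218 FPKM in KO libraries, against 141, 129 and 124 FPKM in WT libraries. KO replicate 4 was the highest library and the groups were apart, with a log2 fold change of 0.55 ± 0.09 (SE, adjusted p = 0.00147). Eef1g (chr19:8967041-8978180), the structural subunit, had 441, 426 and 459.8 FPKM in KO libraries, against 359, 301 and 305 FPKM in WT libraries. Its groups were apart too, with a log2 fold change of 0.46 ± 0.09 (SE, adjusted p = 0.00252), and its call was lost with quantile normalization (0.15, adjusted p = 0.0715). Eef1d, another exchange subunit whose span overlaps Tigd5, averaged 64.7 ± 1.197 FPKM in KO libraries and 46.9 ± 1.66 FPKM in WT libraries, with a log2 fold change of 0.45 ± 0.06 (SE, adjusted p = 0.000788). Eef1e1, which despite its name works in the aminoacyl-tRNA synthetase complex, did not pass (0.12 ± 0.15, adjusted p = 0.555). Eef2 (chr10:81176631-81182509), the translocation factor, had 1232, 1108 and 1125 FPKM in KO libraries, against 1009, 1081 and 942 FPKM in WT libraries. Each KO value exceeded each WT value by a small margin, and the difference did not pass (0.19 ± 0.09, adjusted p = 0.102). With quantile normalization of the libraries, Eef2 had -0.36 and passed downward (adjusted p = 0.00431), while with median-ratio scaling it had 0.24 (adjusted p = 0.0562). The authors' deposited table gave Eef2 0.25 (q = 0.0119).

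Of the enzymes that modify elongation factors, 2 of 6 tested rose, both of them under 1791 nt, where 59.8% of all genes rose. Eef1akmt1 (chr14:57549595-57571582), a lysine methyltransferase of eEF1A, had 13.2, 13.3 and 14.5 FPKM in KO libraries, against 9.61, 7.63 and 8.001 FPKM in WT libraries. The groups were far apart and the call was kept under all 14 other settings without length removal, with a log2 fold change of 0.65 ± 0.10 (SE, adjusted p = 0.000902), but it was lost with length removed (0.24, adjusted p = 0.0596). Eef1akmt4, another such enzyme whose locus is shared with the readthrough gene Eef1akmt4-ece2, averaged 5.38 ± 0.978 FPKM in KO libraries and 3.71 ± 0.697 FPKM in WT libraries, with a log2 fold change of 0.44 ± 0.14 (SE, adjusted p = 0.0279). That call was lost without KO replicate 2 or 4 or WT replicate 2 or 4 (adjusted p = 0.0509 to 0.1). Eef2k, the kinase that inhibits eEF2, averaged 5.31 ± 0.701 FPKM in KO libraries and 5.37 ± 0.313 FPKM in WT libraries and did not pass (-0.02 ± 0.10, adjusted p = 0.906). Eef1akmt2, Eef2kmt and Eef1aknmt did not pass either, and Eef1akmt3 was under the expression filter with 1, 6 and 0 reads in KO libraries, against 7, 12 and 5 reads in WT libraries.

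Of the 5 genes for eIF1, eIF1A and their relatives, which help to choose the start codon, 2 rose and 0 fell. These counts stood beside 18.3% and 25.8% of all genes. Both that rose were also under 1791 nt, where 59.8% of all genes rose. Eif1, which keeps the scanning ribosome open, had 372, 392 and 385 FPKM in KO libraries, against 336, 315 and 325 FPKM in WT libraries. Its groups were apart, with a log2 fold change of 0.24 ± 0.07 (SE, adjusted p = 0.02). Its paralog Eif1b had 63.8, 60.2 and 68.5 FPKM in KO libraries, against 52.2, 42.8 and 47.95 FPKM in WT libraries, again apart, with a log2 fold change of 0.42 ± 0.09 (SE, adjusted p = 0.00405). The Eif1 call was lost without KO replicate 3 or 4 or WT replicate 3 or 4 (adjusted p = 0.0517 to 0.0699), and with quantile normalization its log2 fold change was -0.06. Eif1ax, an X-linked gene for eIF1A that closely resembles Eif1a, had 11.01, 11.7 and 12.8 FPKM in KO libraries, against 11.2, 10.3 and 10.8 FPKM in WT libraries. The libraries overlapped, and neither Eif1ax (0.13 ± 0.08, adjusted p = 0.24) nor Eif1a (-0.17 ± 0.13, adjusted p = 0.303) passed.

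The alpha and beta subunits of the tRNA carrier eIF2 did not pass, at 0.12 ± 0.11, adjusted p = 0.41 for Eif2s1 and 0.17 ± 0.10, adjusted p = 0.205 for Eif2s2. Eif2s3x (chrX:94188709-94212651), the X-linked gene of the gamma subunit, had 12.04, 13.7 and 9.91 FPKM in KO libraries, against 17.3, 14.2 and 14.9 FPKM in WT libraries. It fell, with a log2 fold change of -0.36 ± 0.12 (SE, adjusted p = 0.0312), and the call was lost without KO replicate 2 or 4 or WT replicate 2 or 4 (adjusted p = 0.0592 to 0.105). Its close Y-linked copy Eif2s3y (chrY:1010562-1049134) had 3.34, 3.6 and 3.72 FPKM in KO libraries, against 3.96, 3.401 and 4.2 FPKM in WT libraries. Those values overlapped (-0.09 ± 0.10, adjusted p = 0.489), and reads of the pair may be split between them. Eif2a, which encodes a factor distinct from the eIF2 subunits and overlaps Serp1, rose (0.37 ± 0.11, adjusted p = 0.0228), but not without KO replicate 4 or WT replicate 3 or 4 (adjusted p = 0.0718 to 0.0765). Eif2d, a factor of ribosome recycling and unusual initiation whose span overlaps Rassf5, had 2.59, 2.81 and 2.71 FPKM in KO libraries, against 2.65, 2.34 and 2.12 FPKM in WT libraries. The libraries overlapped, and the difference did not pass (0.14 ± 0.10, adjusted p = 0.271).

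All 5 subunits of the exchange factor eIF2B had positive point estimates, and 2 rose. Of all 10806 genes, 5051 had positive point estimates and 18.3% rose. Eif2b4, a regulatory subunit, averaged 20.5 ± 0.9398 FPKM in KO libraries and 15.8 ± 0.568 FPKM in WT libraries, with a log2 fold change of 0.35 ± 0.07 (SE, adjusted p = 0.00422). Eif2b2, another regulatory subunit, averaged 49.6 ± 3.83 FPKM in KO libraries and 41.1 ± 3.29 FPKM in WT libraries, with a log2 fold change of 0.27 ± 0.08 (SE, adjusted p = 0.0282), and its call was lost without KO replicate 4 or WT replicate 3 or 4 (adjusted p = 0.0865 to 0.0995). With length removed, Eif2b2 did not pass (0.03, adjusted p = 0.74). Eif2b1, Eif2b3 and Eif2b5 did not pass, and Eif2b5, the catalytic subunit, had 0.10 ± 0.07, adjusted p = 0.274.

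In the cap-binding complex, the 3 eIF4G genes all fell. Among all genes of 4128 to 6229 nt, where Eif4g1 lies, 40.8% fell, and among longer ones, where Eif4g2 and Eif4g3 lie, 66.2% fell. Eif4g1 (chr16:20672720-20692883), the scaffold that joins the cap-binding protein to eIF3, had 69.1, 76.7 and 61.9 FPKM in KO libraries, against 100.3, 89.9 and 94.9 FPKM in WT libraries. The highest KO library was below the lowest WT library, with a log2 fold change of -0.45 ± 0.09 (SE, adjusted p = 0.00298). Eif4g3 (chr4:137991779-138207086), its paralog, had 9.88, 10.1 and 9.76 FPKM in KO libraries, against 15.1, 13.98 and 15.7 FPKM in WT libraries. The 3 KO values were close to each other and well below WT, with a log2 fold change of -0.54 ± 0.08 (SE, adjusted p = 0.000802). Eif4g2, a relative that does not bind eIF4E, had 89.2, 92.99 and 87.9 FPKM in KO libraries, against 118, 98.1 and 110.0 FPKM in WT libraries. The gap between groups was narrower, with a log2 fold change of -0.27 ± 0.08 (SE, adjusted p = 0.0221), and the call was lost without KO replicate 2 or 4 or WT replicate 2 or 4 (adjusted p = 0.0582 to 0.0759), while those of Eif4g1 and Eif4g3 were kept under all 14 other settings without length removal.

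Of the 3 cap-binding proteins, 0 rose and 1 fell, but 1 rose and 0 fell with quantile normalization. Eif4e, the main cap-binding protein, had 5.02, 6.07 and 5.65 FPKM in KO libraries, against 5.09, 5.03 and 5.99 FPKM in WT libraries. Those values overlapped, with a log2 fold change of 0.05 ± 0.10 (SE, adjusted p = 0.73). Eif4e2, a relative known as a repressor of some mRNAs, had 7.901, 8.54 and 9.95 FPKM in KO libraries, against 8.27, 6.66 and 7.48 FPKM in WT libraries. It did not pass (0.21 ± 0.11, adjusted p = 0.136). Eif4e3 had 5.14, 4.72 and 4.92 FPKM in KO libraries, against 6.57, 5.77 and 6.14 FPKM in WT libraries and fell by a small amount, with a log2 fold change of -0.27 ± 0.09 (SE, adjusted p = 0.0294). That call was lost without KO replicate 2, 3 or 4 or WT replicate 2 or 4 (adjusted p = 0.0518 to 0.0892). With length removed, 2 of the 3 genes were higher and 0 lower, and Eif4e3 did not pass (0.04, adjusted p = 0.731).

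The inhibitors of eIF4E, which mTORC1 inactivates, differed in direction as measured, where 18.3% of all genes rose and 25.8% fell. Eif4ebp1 (chr8:27260327-27275656) had 69.6, 72.98 and 68.03 FPKM in KO libraries, against 59.1, 49.3 and 51.98 FPKM in WT libraries. It rose, with a log2 fold change of 0.39 ± 0.08 (SE, adjusted p = 0.00409), with the groups apart. With length removed, Eif4ebp1 did not pass (-0.01, adjusted p = 0.947). Eif4ebp2 (chr10:61428491-61452790) had 29.4, 30.1 and 24.5 FPKM in KO libraries, against 36.98, 32.9 and 34.1 FPKM in WT libraries. It fell, with a log2 fold change of -0.30 ± 0.09 (SE, adjusted p = 0.0227), but not without KO replicate 4 or WT replicate 2 or 4 (adjusted p = 0.0585 to 0.0727). Eif4ebp3 had 6.46, 5 and 8.301 FPKM in KO libraries, against 6.48, 8.06 and 8.17 FPKM in WT libraries, with overlapping groups (-0.19 ± 0.15, adjusted p = 0.328). Eif4enif1, the protein that carries eIF4E to the nucleus, did not pass (-0.14 ± 0.08, adjusted p = 0.166).

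Of the 5 tested genes for helicases and their cofactors, 0 passed in either direction. With quantile normalization Eif4h passed downward (-0.16, adjusted p = 0.0326), and with median-ratio scaling Eif4a3 passed upward (0.22, adjusted p = 0.0233). Eif4a1, the main eIF4A helicase, had 254, 286 and 253 FPKM in KO libraries, against 262, 224 and 243 FPKM in WT libraries. Eif4a2, its paralog, had 43.9, 39.9 and 43.4 FPKM in KO libraries, against 41.6, 42.7 and 47.8 FPKM in WT libraries. Eif4a3, the helicase of the exon junction complex, had 105, 101 and 109 FPKM in KO libraries, against 95.3, 94.3 and 89.8 FPKM in WT libraries. Eif4a1 and Eif4a2 overlapped between groups, while each KO value of Eif4a3 was above each WT value, and its log2 fold change was 0.17 ± 0.07, adjusted p = 0.0656. Eif4b averaged 103 ± 9.303 FPKM in KO libraries and 95.7 ± 4.39 FPKM in WT libraries and Eif4h 149 ± 1.01 FPKM in KO libraries and 149 ± 5.19 FPKM in WT libraries, both overlapping. Eif4a3l1, a copy of Eif4a3, was listed at 0 in all 3 KO libraries and in 2 of 3 WT libraries and was not tested.

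Of the factors for subunit joining, Eif5 and Eif5b fell and Eif6 rose as measured, where 25.8% of all genes fell and 18.3% rose. With length removed, 0 of the 3 passed. Eif5 then had -0.19 (adjusted p = 0.086), Eif5b 0.02 (adjusted p = 0.856) and Eif6 -0.06 (adjusted p = 0.551). Eif5b (chr1:37998010-38055579), the GTPase that joins the subunits, had 13.9, 14.1 and 13.5 FPKM in KO libraries, against 18.4, 16.04 and 19.04 FPKM in WT libraries. The groups were apart, with a log2 fold change of -0.34 ± 0.08 (SE, adjusted p = 0.00889). Eif5, the GTPase-activating factor of eIF2, averaged 37.1 ± 1.68 FPKM in KO libraries and 46.3 ± 4.51 FPKM in WT libraries, with a log2 fold change of -0.31 ± 0.08 (SE, adjusted p = 0.0148), and its call was lost without KO replicate 4 or WT replicate 4 (adjusted p = 0.0522 to 0.0625). Eif6, which keeps free large subunits apart from small ones, averaged 96.5 ± 3.85 FPKM in KO libraries and 83.7 ± 1.85 FPKM in WT libraries, with a log2 fold change of 0.20 ± 0.07 (SE, adjusted p = 0.03), and its call was lost without KO replicate 3 or 4 or WT replicate 3 or 4 (adjusted p = 0.0706 to 0.0978).

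The eIF5A pair, whose proteins carry the amino acid hypusine and help the ribosome through difficult stretches, went in opposite directions as measured. Among all genes in the length class of Eif5a, as described further on, 20.3% rose and 4.41% fell. In the length class of Eif5a2, 2.82% rose and 40.8% fell. With length removed, neither passed, with 0.14 (adjusted p = 0.236) for Eif5a and -0.41 (adjusted p = 0.112) for Eif5a2. Eif5a (chr11:69916712-69921958), the common form, had 244, 271 and 252 FPKM in KO libraries, against 238, 191 and 212 FPKM in WT libraries. It rose by a small amount, with a log2 fold change of 0.26 ± 0.09 (SE, adjusted p = 0.0392), and not without KO replicate 2, 3 or 4 or WT replicate 3 or 4 (adjusted p = 0.057 to 0.127). Eif5a2 (chr3:28781032-28798846), a form of low level here, had 1.55, 1.42 and 0.619 FPKM in KO libraries, against 2.54, 1.85 and 2.61 FPKM in WT libraries. KO replicate 4 was the lowest library, with a log2 fold change of -0.62 ± 0.18 (SE, adjusted p = 0.0176), and the call was lost without WT replicate 2 or 4 (adjusted p = 0.0514 to 0.0602).

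The factors' direction followed transcript length, and so did that of all genes. Length here is the one implied by the deposited values, which sums all annotated exons of a gene and can exceed the mature mRNA, as for Eif2d with 14558 nt and Eif4e with 10231 nt. The slope of a library's log2 deviation on log2 length was -0.099, -0.091 and -0.155 in KO libraries, against 0.101, 0.108 and 0.135 in WT libraries. The tested genes were split into 5 length classes of nearly equal size at 1791, 2867, 4128 and 6229 nt. In class 1, the shortest, 16 of 21 factors rose and 1 fell, where 59.8% of all tested genes rose and 1.57% fell. In class 2, 5 of 12 factors rose and 0 fell (20.3% and 4.41% of all genes). In class 3, 2 of 13 rose and 2 fell (7.55% and 16.1%). In class 4, 0 of 7 rose and 3 fell (2.82% and 40.8%). In class 5, the longest, 0 of 10 rose and 4 fell (1.16% and 66.2%).

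The factors were set beside other genes of their length and the ribosomal proteins. In class 1, the median log2 fold change was 0.39 for 21 factors, 0.34 for 2076 other genes and 0.63 for 71 ribosomal protein genes. The ribosomal protein genes were shorter within this class, with a median of 740 nt, against 1233 nt for the factors and 1270.5 nt for the other genes. With length removed, the class 1 medians were 0.02 for the factors, 0.01 for the other genes and 0.20 for the ribosomal protein genes. In class 2, it was 0.17 for 12 factors, 0.11 for 2136 other genes and 0.55 for 8 ribosomal protein genes. In classes 3, 4 and 5, the factors' medians were 0.10, -0.14 and -0.05, and those of the other genes were -0.05, -0.20 and -0.38. The 10 longest factors thus lay farther above other long genes than the short factors lay above other short ones, with no test of that difference. The eIF3 genes as measured followed length within 1 complex, as the plot against length shows: the 9 that rose ranged from 1068 to 2134 nt, the 4 that did not pass from 2413 to 2966 nt, and Eif3a, which fell, had 5176 nt.

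**Figure D3:**
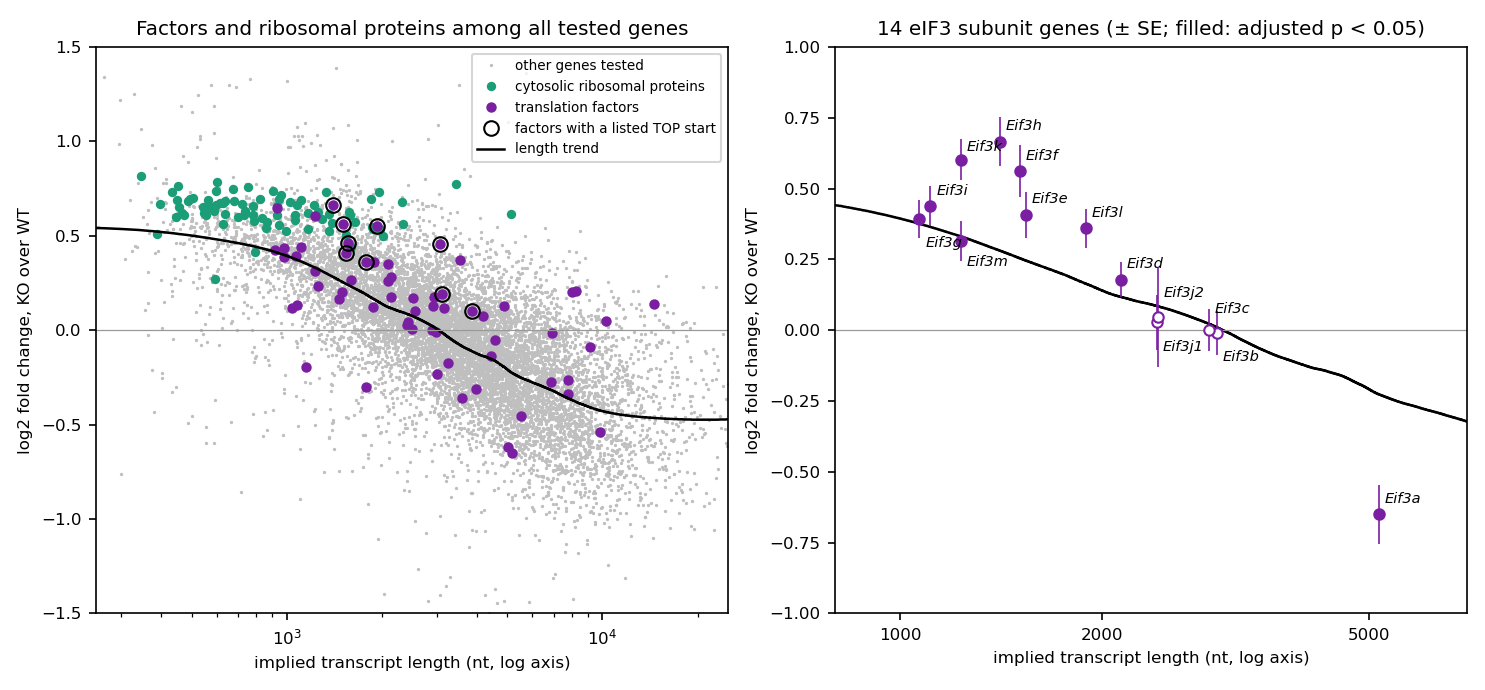
log2 fold change, KO over WT (y axes), against implied transcript length in nt (x axes, log scale). The left panel has all tested genes (grey, other genes; green, ribosomal proteins; purple, factors; rings, factors with a listed TOP start; line, the fitted length trend) and the right panel the 14 eIF3 genes ± SE, filled at adjusted p under 0.05. The cloud and the factors run downward with length, the ribosomal proteins lie above the trend, and Eif3h, Eif3k and Eif3f lie above it while Eif3a lies below.

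After each library's length trend was subtracted, 15 factors were higher, 3 were lower and 45 did not pass, against 10.0% higher, 9.10% lower and 19.1% in all over all genes tested. The median of the 63 factors was then 0.06 and that of the ribosomal proteins 0.21, with 36 of 81 higher and 0 lower. Both medians changed sign with quantile normalization before the subtraction, to -0.05 for the factors (12 higher, 8 lower) and -0.13 for the ribosomal proteins (6 higher, 26 lower). Of the 23 factors that rose as measured, 9 were also higher after the subtraction: Eif3f, Eif3h, Eif3k, Eif3l, Eef1b2, Eef1d, Eef1g, Eif2a and Eif2b4. Of the 10 that fell, Eif3a and Eif4ebp2 remained lower. The other 14 and 8 no longer passed, and 0 passed in the opposite direction. Some of them changed sign, such as Eif3m (0.32 to -0.02) and Eif4g2 (-0.27 to 0.09).

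The largest length-adjusted values among eIF3 genes were those of Eif3h (0.38, adjusted p = 0.00907) and Eif3a (-0.42, adjusted p = 0.0144). Eef1d, of middle implied length, was little moved by the subtraction (0.46, adjusted p = 0.00234), and Eef1b2 had 0.39, adjusted p = 0.0108. Both values rest on implied lengths, 3067 nt for Eef1d and 1933 nt for Eef1b2, which can exceed the mature mRNA. Eif4ebp2 is short yet fell, so its length-adjusted change was larger than the measured one (-0.49, adjusted p = 0.0102). The eIF4G genes, all long, no longer passed, with -0.20, adjusted p = 0.086 for Eif4g1, 0.09, adjusted p = 0.342 for Eif4g2 and -0.12, adjusted p = 0.234 for Eif4g3. Eef1a1 had 0.18, adjusted p = 0.151 and Eef2 had 0.20, adjusted p = 0.117. With quantile normalization before the subtraction, Eef1g had -0.10 and Eef2 -0.39, against 0.22 and 0.20 without it.

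A further 7 factors passed only after the subtraction. Eif2d (0.61, adjusted p = 0.00667), Eif4e2 (0.59, adjusted p = 0.00976) and Eif4e (0.48, adjusted p = 0.0108) were long genes whose measured levels overlapped between groups. Eef1a2 (0.57, adjusted p = 0.0252), Eif1ax (0.32, adjusted p = 0.0271) and Eif2s3y (0.32, adjusted p = 0.0381) joined them on the higher side. Eif4ebp3, a short gene, joined on the lower side (-0.55, adjusted p = 0.0334). For genes such as Eif2d and Eif4e, the adjusted value rests on the implied lengths of 14558 and 10231 nt, at which the log2 trend subtracted was -0.46 and -0.43.

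Leaving out libraries changed the length-adjusted calls unequally. Against 15 higher and 3 lower with all libraries, 8 and 2 passed without KO replicate 2, 7 and 3 without KO replicate 4, 9 and 3 without WT replicate 2 and 7 and 1 without WT replicate 4. Without KO replicate 3 they were 11 and 5, and without WT replicate 3 they were 10 and 3. The calls of Eef1b2, Eef1d, Eif2d, Eif3h, Eif4e, Eif4e2 and Eif4ebp2 were kept each time, although that of Eef1b2 was lost with quantile normalization (0.19, adjusted p = 0.067) and under the replicate block (adjusted p = 0.051). Those of Eif2b4, Eif3l and Eif2s3y were lost whichever library was left out (adjusted p = 0.054 to 0.0922, 0.0531 to 0.157 and 0.0566 to 0.112). Eef1g lost its call without any library but WT replicate 2 (0.0808 to 0.165), and Eif3a lost its call without WT replicate 4 (0.0559). Eif3f and Eif3k lost theirs without KO replicate 2 or 4 or WT replicate 2 or 4 (0.0829 to 0.127 and 0.0524 to 0.0899). Eif2a lost its call without KO replicate 4 or WT replicate 3 or 4 (0.0549 to 0.0851), and Eif1ax without those or WT replicate 2 (0.0514 to 0.0988). Eef1a2 lost its call without KO replicate 2 or 3 or WT replicate 2 (0.0558 to 0.0816), and Eif4ebp3 without KO replicate 2 or 3 or WT replicate 3 or 4 (0.0717 to 0.114).

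The 9 factors listed as having a TOP start (Eef1a1, Eef1b2, Eef1d, Eef1g, Eef2, Eif3e, Eif3f, Eif3h and Eif4b) were set beside the ribosomal proteins and the other factors. The list was chosen with earlier results of these data known, so the grouping is not independent of them. As measured, 7 of the 9 rose and 0 fell (5 and 1 with quantile normalization), beside 18.3% and 25.8% of all genes. All 9 had positive values (6 with quantile normalization), beside 5051 of all 10806 genes. The 9 had a median log2 fold change of 0.45, and 5 of them were in length class 1, where 59.8% of all genes rose. Of the other 54 factors, 16 rose and 10 fell, with a median of 0.12. After the subtraction of length, the 9 had a median of 0.22, the ribosomal proteins 0.21 and the other 54 a median of 0.03. With quantile normalization before the subtraction, the medians were 0.03 for the 9 and -0.05 for the other 54, beside -0.13 for the ribosomal proteins, so that the other 54 then stood nearer to the ribosomal proteins than the 9 did. No test of the difference between the 2 sets was made. The 9 also had higher levels, with a median of 189 FPKM over all libraries against 17.7 FPKM for the other 54, and the part of level in the difference was not tested.

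By library, the median deviation of the 9 TOP-listed factors from their own means, on the log2 scale with length removed, was 0.15, 0.09 and 0.16 in KO libraries, against -0.13, -0.06 and -0.21 in WT libraries. The ribosomal proteins had 0.13, 0.07 and 0.14 in KO libraries, against -0.09, -0.08 and -0.17 in WT libraries. The other 54 factors had 0.00, 0.06 and 0.01 in KO libraries, against 0.03, -0.05 and -0.01 in WT libraries. The first 2 sets separated the groups and had their lowest value in WT replicate 4, while the other factors overlapped between groups.

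**Figure D4:**
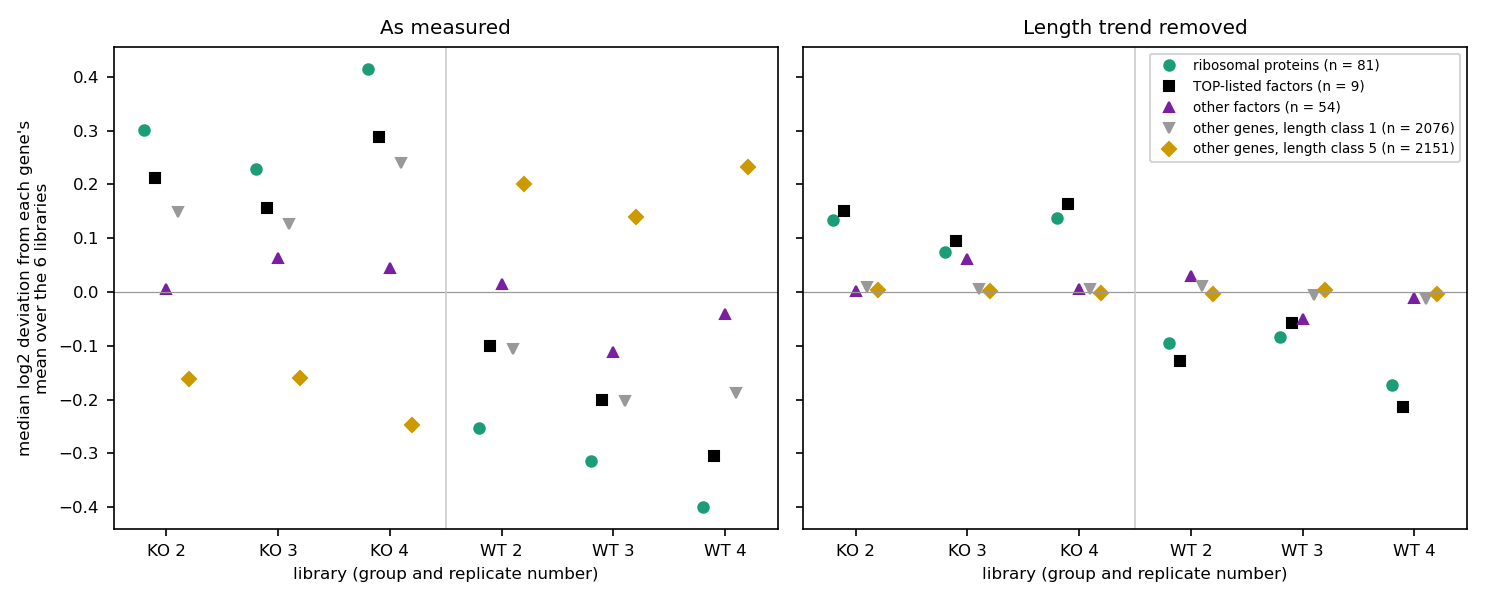
Median log2 deviation of each gene set from its genes' means over the 6 libraries (y axes) in each KO and WT library (x axes), as measured (left) and with the length trend removed (right). Ribosomal proteins and TOP-listed factors lie above 0 in KO libraries and below 0 in WT libraries in both panels, while the other 54 factors lie between -0.11 and 0.06, and length classes 1 and 5 of the other genes lie near 0 on the right. With quantile normalization before the subtraction, the ribosomal protein median on the right turned to -0.13 between groups.

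Genes around the factors were read from lists of the same pathway, which were also chosen with earlier results of these data known. Of 9 other genes with a TOP start, 4 rose and 0 fell (3 and 1 with quantile normalization, 6 and 0 with median-ratio scaling). Over all genes, 18.3% rose and 25.8% fell, and in class 2, where the median length of the 9 (1834 nt) lies, 20.3% rose. Those that rose with the smallest p were Naca (0.53, adjusted p = 0.000704), Tpt1 (0.67, adjusted p = 0.000919) and Btf3 (0.48, adjusted p = 0.00127), which encode growth-linked and ribosome-associated proteins. After the subtraction of length, 2 of the 9 were higher and 0 lower (1 and 3 with quantile normalization), and Btf3 did not pass (0.12, adjusted p = 0.15). Of 17 genes of mTORC1 and S6 kinase signalling, 3 rose and 6 fell (5 and 6 with either other scaling), among them Mtor, the kinase itself (-0.49, adjusted p = 0.00184), Rps6ka3 (-0.69, adjusted p = 0.000997) and the inhibitor Deptor (-0.55, adjusted p = 0.00299). The median length of the 17 was 6437 nt, which lies in class 5, where 1.16% of all genes rose and 66.2% fell. After the subtraction of length, 3 of the 17 were higher and 1 was lower, with only 1 of the 3 among those that rose as measured. Mtor (-0.10, adjusted p = 0.34) and Deptor (-0.16, adjusted p = 0.298) then did not pass, and Rps6ka3 remained lower (-0.28, adjusted p = 0.0464).

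Of 6 genes for the kinases of eIF2 alpha and the subunits that remove its phosphate, 0 rose and 5 fell (0 and 4 with either other scaling). Their median length was 5228 nt, which lies in class 4, where 40.8% of all genes fell. Ppp1r15a, the inducible phosphatase subunit, averaged 22.4 ± 0.762 FPKM in KO libraries and 34.7 ± 2.36 FPKM in WT libraries (-0.61, adjusted p = 0.000532), and Ppp1r15b, the constant subunit, averaged 15.2 ± 0.733 FPKM in KO libraries and 23.1 ± 2.01 FPKM in WT libraries (-0.56, adjusted p = 0.000919). Both remained lower after the subtraction of length (-0.70, adjusted p = 0.00104; -0.31, adjusted p = 0.0162). Eif2ak2, the kinase that senses double-stranded RNA, fell as measured (-0.50, adjusted p = 0.00288) and did not pass after it (-0.19, adjusted p = 0.159). Of 9 tested targets of the integrated stress response, which eIF2 alpha phosphorylation sets off, Ddit3 rose (0.31, adjusted p = 0.0161) and Ddit4 fell (-0.39, adjusted p = 0.0201), Ddit4 not passing with median-ratio scaling (adjusted p = 0.0542). After the subtraction of length, Ddit3 did not pass (0.24, adjusted p = 0.0753) and Ddit4 was lower (-0.60, adjusted p = 0.0119).

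The other lists were mixed. Of 7 tested genes of termination and ribosome rescue, Mcts1 (0.44, adjusted p = 0.00728) and Denr (0.33, adjusted p = 0.0185), partners in recycling the small subunit, rose and 0 fell (2 and 1 with quantile normalization). Neither passed after the subtraction of length (0.23, adjusted p = 0.12 for Mcts1; 0.25, adjusted p = 0.057 for Denr), where 1 of the 7 was higher and 1 lower. Of 22 cytosolic aminoacyl-tRNA synthetase genes, 4 rose and 3 fell, and of 10 mitochondrial translation factors, 2 rose and 0 fell. With median-ratio scaling these counts were 7 and 2 for the synthetases and 4 and 0 for the mitochondrial factors. Of 6 tested poly(A)-binding proteins and partners, Paip2 rose (0.25, adjusted p = 0.0173) and Paip2b fell (-0.26, adjusted p = 0.0381), but Paip2b did not pass with either other scaling (adjusted p = 0.0569 and 0.155). Of the 2 enzymes that make hypusine on eIF5A, Dhps rose (0.42, adjusted p = 0.00326), but it did not pass after the subtraction of length (0.12, adjusted p = 0.261). All of these lists stood against the 18.3% and 25.8% of all genes that rose and fell.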

How the data were processed

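The authors deposited FPKM per gene and library, and a table of their comparison with group means as normalized signal, fold changes as ratio and log2, and p-values and q-values, per the file headers. The submitters' processing notes name the authors' tools with no role or order. They are HISAT2 2.1.0 and fastp 0.19.3, featureCounts 1.6.2, Cufflinks and StringTie 1.3.4d, and GATK 4.0.11.0, and the authors also name DESeq2 1.22.1 and the build mm10. The kit was stranded, per the labels' protocols, but the strand setting of the counting is not given in the sources used here, so for the 29 factor genes whose spans overlap another gene, reads cannot always be told apart.

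FPKM is not a count, so log2(FPKM + 1) was tested with limma 3.58.1 in R 4.3.3 (two-sided, eBayes with trend, no covariate) for genes at 1 FPKM or more in 3 or more libraries, with Benjamini-Hochberg adjustment over all 10806 genes and a threshold of 0.05. Differences are on this scale, which understates those of low genes. Whole reads and transcript lengths were recovered from FPKM and the deposited group means. This gave reads for 64 of 65 factors, and 100% of the values below 1000 reads came out whole to within 0.05. The length-adjusted test used the same fit after each library's loess trend (span 0.3) of its deviation on log2 length was subtracted. Pairs of replicates had a chi-square per gene of 19.5 to 66.7, so none repeated another. Scripts were tested on simulated data. Coordinates come from NCBI RefSeq on GRCm38.p6, where all 65 matched by gene ID, and sequences were not used here.

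The genes, roles, pathway lists and TOP list were chosen with earlier results of these data known. Values in every library are given for the 6 factors with the largest positive and 6 with the largest negative called change, the 4 of highest level, paralog sets, and the 6 with the smallest p among those that crossed the threshold after length adjustment. Of each other list, up to 3 genes with the smallest p are named.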

Additional observations from a re-analysis of the deposited data

How the results depend on the processing

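Other settings were 2 scalings, 2 filters, the pseudocount 0.1, a replicate block, limma-voom on the recovered reads and each library left out, and for the length-adjusted test also a natural spline and a trend fitted without the factors and ribosomal proteins. The settings without both libraries numbered 4, limma-voom with length removed and the authors' calls were added after seeing the data. Leaving out 1 library gave 15 to 22 factors higher and 4 to 10 lower (23 and 10 with all), and 7 to 11 higher and 1 to 5 lower with length removed (15 and 3 with all). With no expression filter, 4 were lower, and 5 with length removed. Quantile normalization gave 8 lower with length removed. It reversed the log2 fold changes of Eef1a1 (-0.25), Eef2 (-0.36), Eif1 (-0.0558) and Eif4h (-0.16, adjusted p = 0.0326), and with length removed those of Eef1g (-0.10) and Eef2 (-0.39, adjusted p = 0.00862). The cause was not tested. Libraries of the same number did not deviate together (r = -0.195, -0.349 and -0.222). Deviations from the mean of so few libraries cannot decide whether the numbers pair the samples. The replicate block gave 16 higher and 8 lower, and 5 and 1 with length removed. Without both libraries numbered 4, with fewer samples, 9 were higher and 3 lower. With length removed, limma then called 0 higher and 0 lower, while 13 and 3 had an unadjusted p under 0.05. limma-voom gave 21 and 10, and 13 and 4 with length removed. The authors' deposited table called 26 higher and 9 lower (13.6% and 15.7% of its 17686 genes). Of the calls, 9 of 23 higher and 3 of 10 lower ones were kept under all 14 settings, and with length removed 0 of 15 and 0 of 3 under all 16. Apart from the setting of 2 against 2 libraries, which with length removed called 27 higher and 38 lower of all genes, 5 of 15 and 1 of 3 were kept under the other 15 (for Eif2d under 14, since it was not tested at 5 FPKM or more), and 14 of 23 and 4 of 10 as measured under the other 13. An edgeR fit and the exon length of an annotation were not run. Depth limits Eef1akmt3 and Eif4a3l1, which were under the filter.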
